A study of Mus musculus with 3 samples.

Results

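Elastic fibres give skin its recoil, and the genes that encode their parts were followed here through the cells of healing mouse wounds. The 9 genes were chosen by symbol from the deposited gene table, out of 19070 genes measured: Eln, which encodes tropoelastin, the Fbn1 and Fbn2 fibrillins, the fibulins Fbln1, Fbln5 and Efemp2, and Emilin1, Mfap4 and Mfap5, which sit on microfibrils or at their border with elastin. All 9 were on the probe panel, each under 1 Ensembl gene identifier. Elastic fibres form when tropoelastin, secreted by fibroblasts, vascular smooth muscle and some endothelial cells, is deposited on a scaffold of fibrillin microfibrils and crosslinked by lysyl oxidases. Fibulins guide tropoelastin and the crosslinking enzymes to each other, and microfibrils also hold latent TGF-beta in the matrix. In skin the fibres are laid down mainly before and around birth, and scars are known for having few of them.

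The study took wounds from female C57BL/6J mice operated on at postnatal day 50. A splinted full-thickness wound of 5 mm was made in the back skin, and tissue with a 2 mm margin of intact skin was taken 5 days later. The 3 groups were untreated wounds (titled sham), wounds that received 20 µL of gelatin methacryloyl (GelMA), a light-cured gelatin hydrogel, and wounds that received the same volume of GelMA loaded with apoptotic neutrophils (AN-GelMA), both gels cured by 1 min of ultraviolet light. All wounds were covered with an adhesive film and bandage. The tissue was fixed for 24 h, digested with Liberase and read with probe pairs (10x GEM-X Flex), which count unique molecular identifiers (UMIs) per gene. Each group was 1 library and the labels do not give the number of mice in it, so treatment, animal and piece of skin cannot be told apart and no difference has a replicate check. The deposited tables of the AN-GelMA library carry the word heat in their names, and it was read as AN-GelMA from its labels.

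The 3 libraries held 6073, 11449 and 9648 cell barcodes in the order untreated, GelMA and AN-GelMA, which is kept throughout, with 8945496, 21613482 and 14156692 UMIs and medians of 1125, 1485 and 1134 UMIs per cell. Between 94 and 135 barcodes were shared by each pair of libraries. After filtering, 25502 cells were assigned to classes from marker genes, without the members in the clustering. Fibroblast-like cells, called fibroblasts here, were 1050, 697 and 2009 cells, or 18.4%, 6.52% and 22.1% of each library, and all 9 fibroblast markers were above 0 in each. The GelMA library stood apart by its hair-forming cells, which numbered 190, 2850 and 46. Within fibroblasts the summed level of the 8 hair-forming markers was 88.8, 801 and 16.3 CPM, the UMIs of a gene per 1e6 UMIs of its class, with 2, 0 and 2 of them at 0. Keratinocyte markers came to 465, 921 and 547 CPM with none of 10 at 0, and fibroblast markers to 30526, 22798 and 30409.7 CPM. The part of these differences in the member values was not tested.

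RefSeq promoter windows on build GRCm38.p6 were used for 5 of the 9 members, 9 windows in all, some of which overlap. Any member window on 1 chromosome was left out by choice. The windows of all genes given below were not filtered in this way. The stretch of 250 bases before a listed start is shown for Fbn1 and Emilin1, which have 1 window each, and for the first of the 3 windows of Efemp2, because these 3 genes were all higher in AN-GelMA than in GelMA fibroblasts. Capitals mark the GC box GGGCGG, searched on both strands, and each sequence runs 5′ to 3′ on the strand of its gene.
Fbn1, chr2:125506439-125506688, minus strand: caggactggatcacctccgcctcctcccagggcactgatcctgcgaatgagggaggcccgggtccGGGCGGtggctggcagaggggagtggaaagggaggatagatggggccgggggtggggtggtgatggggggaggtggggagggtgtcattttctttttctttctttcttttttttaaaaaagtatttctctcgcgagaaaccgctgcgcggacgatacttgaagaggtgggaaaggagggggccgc
Efemp2, chr19:5473696-5473945, plus strand: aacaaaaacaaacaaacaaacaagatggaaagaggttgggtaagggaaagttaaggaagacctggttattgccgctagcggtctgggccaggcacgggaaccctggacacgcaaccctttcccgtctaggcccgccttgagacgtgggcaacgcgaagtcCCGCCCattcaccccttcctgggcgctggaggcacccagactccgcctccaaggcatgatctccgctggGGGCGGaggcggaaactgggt
Emilin1, chr5:30913536-30913785, plus strand: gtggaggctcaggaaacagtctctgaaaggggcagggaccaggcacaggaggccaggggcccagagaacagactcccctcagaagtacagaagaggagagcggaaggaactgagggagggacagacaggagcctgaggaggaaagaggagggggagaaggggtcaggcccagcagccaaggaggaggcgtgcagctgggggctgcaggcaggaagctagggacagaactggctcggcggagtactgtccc
The Fbn1 window had 1 GC box and 59.2% G and C, the Efemp2 window shown 2 GC boxes and 59.2%, and the Emilin1 window none and 63.2%. The other 2 Efemp2 windows, which overlap, had 75.6% and 78.8% G and C and 5 GC boxes each. Across members 6 of 9 windows held a GC box, beside 32.7% of 32851 windows of all genes, whose median G and C content was 52.4%. None of the 9 held TATAAA, found on either strand in 12.4% of all windows, or the AP-1 letters TGANTCA, found in 6.75%. These matches describe letters in the window and say nothing of binding.

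Fibroblasts held more UMIs of Fbn1, Fbn2, Mfap4 and Mfap5 than all other classes together in each library, and Eln and Fbln5 were also rich in vessel cells (the map of levels by class). Of all Fbn1 UMIs, 82.6%, 69.6% and 89.4% lay in fibroblasts, and for Mfap5 the shares were 80.7%, 66.6% and 88.8%. Fbn2 gave 72.6%, 67.9% and 89.6% and Mfap4 77.0%, 69.9% and 87.0%. Eln was divided mainly between fibroblasts, with 51.9%, 36.3% and 71.8% of its UMIs, and blood endothelial cells, with 32.4%, 36.9% and 16.6%. The rest lay in other classes and in unnamed cells, which held 5.31% of it in untreated beside 1.24% in pericytes. Endothelial cells held 45.5%, 41.8% and 40.8% of the UMIs of Fbln5, and fibroblasts 33.3%, 30.8% and 42.7%. Fbln1 lay mainly in epithelium: keratinocytes held 52.8%, 43.9% and 53.2%, and in the GelMA library hair-forming cells held 40.8%. These shares move with how many cells of each class a library holds as well as with the level per cell.

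**Figure D1:**
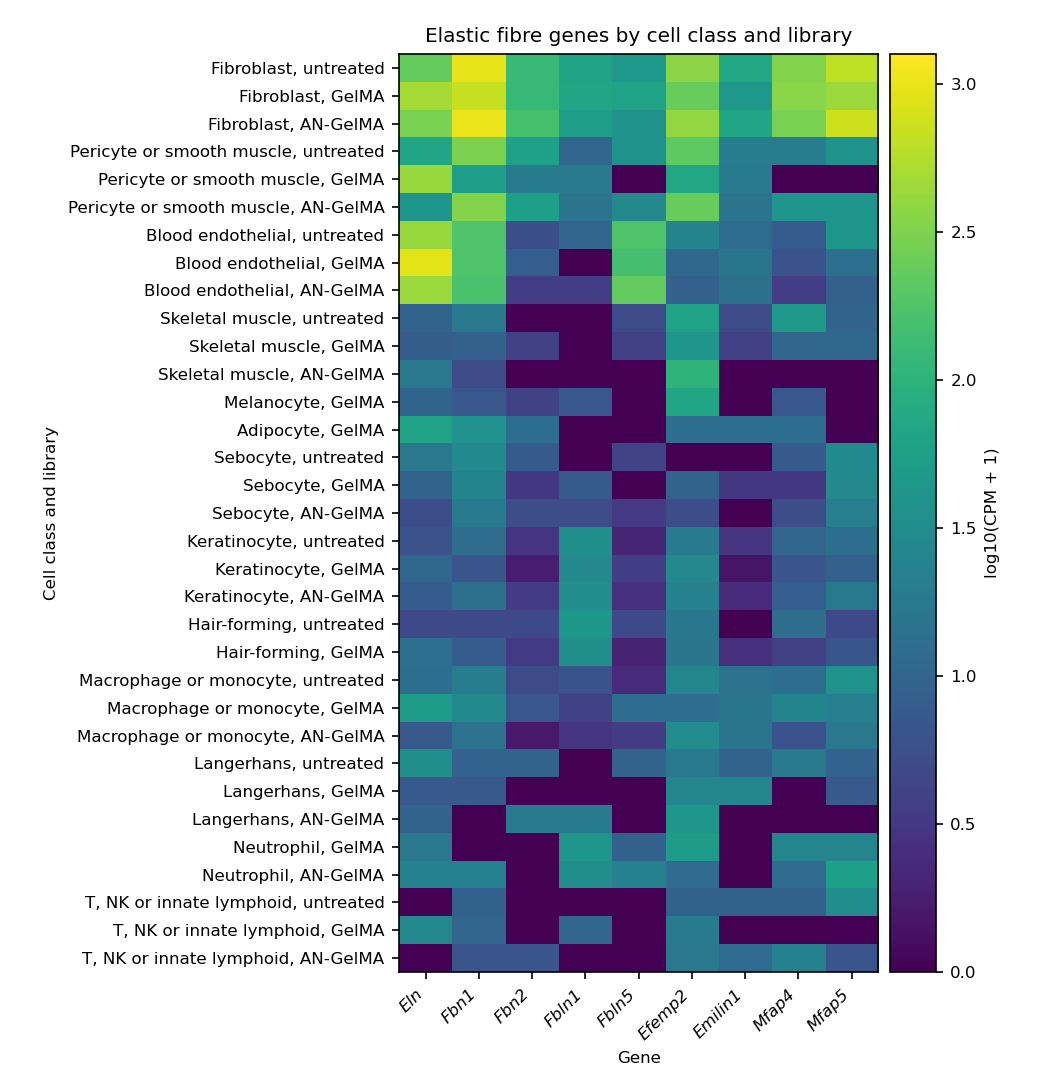
Level of each of the 9 members (columns) in each cell class and library (rows) as log10(CPM + 1), for class sums of at least 50 cells. Eln is high in fibroblasts and blood endothelial cells, Fbln5 in blood endothelial cells, and Fbln1 is spread over keratinocytes and hair-forming cells as well.

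Tropoelastin had its highest fibroblast level in the GelMA library. Eln (ENSMUSG00000029675) was at 234 (208 to 263), 478 (430.4 to 530.3) and 299.6 (278 to 322) CPM in untreated, GelMA and AN-GelMA fibroblasts, where the range in brackets is the exact 95% Poisson interval and covers counting error only. GelMA was thus above both other libraries, with intervals that did not overlap, and AN-GelMA lay between GelMA and untreated. The log2 ratio of AN-GelMA over GelMA was -0.68 (-0.86 to -0.49), and GelMA over untreated was 1.03 (0.80 to 1.26), both past 1.5 times, the size used throughout to call a difference. AN-GelMA over untreated was 0.35 (0.16 to 0.55), short of it. The UMIs sat in few cells: 293, 362 and 719 UMIs came from 109, 119 and 256 cells, and the 5 richest cells of each library held 56, 93 and 109. Without those 5 cells the levels were 190.2, 358 and 255 CPM and the AN-GelMA over GelMA ratio was -0.49, no longer past 1.5 times. Without the Col7a1 Tnc subset of fibroblasts, described further on, it was -0.19, and GelMA over untreated was 0.71.

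The fibrillins form the microfibril backbone, with Fbn1 the main form after birth and Fbn2 mainly a developmental one. Fbn1 (ENSMUSG00000027204) went the other way from Eln, at 975 (921 to 1032), 670.0 (613 to 731) and 1009 (969.5 to 1050.3) CPM. The GelMA library was the low one, and the untreated and AN-GelMA intervals overlapped. AN-GelMA over GelMA was 0.59 (0.45 to 0.73) on the log2 scale, a ratio of 1.51 that lay just past the size called, and GelMA over untreated was -0.54, just short of it. Fbn2 (ENSMUSG00000024598) was at 121 (102 to 142), 118 (94.5 to 145) and 158 (142 to 175) CPM, and none of its 3 ratios passed 1.5 times.

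The microfibril-associated proteins differed from each other. Mfap5 (ENSMUSG00000030116), which binds fibrillins, was at 634 (590.3 to 679), 435 (389 to 484) and 727 (693 to 762) CPM, again lowest with GelMA, and its AN-GelMA over GelMA ratio of 0.74 (0.57 to 0.92) was the highest of the 9 members. Mfap4 (ENSMUSG00000042436), which binds both tropoelastin and microfibrils, was at 322 (291 to 355), 350.2 (309 to 395) and 296 (275 to 318) CPM, 3 overlapping intervals. Emilin1 (ENSMUSG00000029163), an elastin-microfibril interface protein, was at 70.4 (56.5 to 86.7), 43.6 (30.02 to 61.2) and 65.4 (55.6 to 76.5) CPM from 88, 33 and 157 UMIs. Its AN-GelMA over GelMA ratio was 0.59 (0.04 to 1.17), which reached 1.5 times with an interval that came near 0, and GelMA over untreated was -0.69 (-1.31 to -0.10).

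Among the fibulins, Efemp2 was lowest and Fbln5 highest with GelMA in all fibroblasts summed. Averaged with equal weight over the 2 subsets of 50 or more cells in both libraries, AN-GelMA over GelMA was above 0 for both, at 0.16 and 0.47, and Fbln5 in GelMA over untreated was -0.98. These Fbln5 averages have no interval and rest on 5, 3 and 5 UMIs in 1 subset and 23, 8 and 31 in the other. Efemp2 (fibulin-4, ENSMUSG00000024909), which brings lysyl oxidase to tropoelastin, was at 362 (329.8 to 397), 239 (206 to 277) and 389.6 (365 to 415) CPM, with GelMA lowest. AN-GelMA over GelMA was 0.70 (0.47 to 0.94) and GelMA over untreated -0.60 (-0.86 to -0.35). Fbln5 (ENSMUSG00000021186), which binds tropoelastin and Loxl1, was at 44.0 (33.2 to 57.3), 59.5 (43.4 to 79.6) and 37.9 (30.5 to 46.6) CPM, with GelMA highest and neighbouring intervals that overlapped. Its AN-GelMA over GelMA ratio was -0.65 (-1.18 to -0.10), from 55, 45 and 91 UMIs. Fbln1 (ENSMUSG00000006369), found in the amorphous part of elastic fibres and in basement membranes, was at 63.2 (50.0 to 78.8), 67.4 (50.2 to 88.6) and 52.9 (44.1 to 63.0) CPM, with overlapping intervals.

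Of the 9 members in fibroblasts, 4 were higher by 1.5 times or more in AN-GelMA than in GelMA (Fbn1, Efemp2, Emilin1 and Mfap5), beside 10.6% of the 10730 genes with at least 20 UMIs over both libraries. The 2 that were lower, Eln and Fbln5, stand beside 20.0% of those genes. The members' median log2 ratio was 0.43 and that of all these genes -0.12. In GelMA over untreated, 1 member was higher, Eln, beside 18.6% of 10102 genes, and 2 were lower, Efemp2 and Emilin1, beside 10.2%, with a members' median of -0.04 and 0.10 for all genes. No member passed in AN-GelMA over untreated in either direction, where 5.2% of 10793 genes were higher and 6.81% lower. The members' median there was 0.05 and that of all genes -0.01. Each pair of these comparisons shares a library, so their values are not independent of each other.

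**Figure D2:**
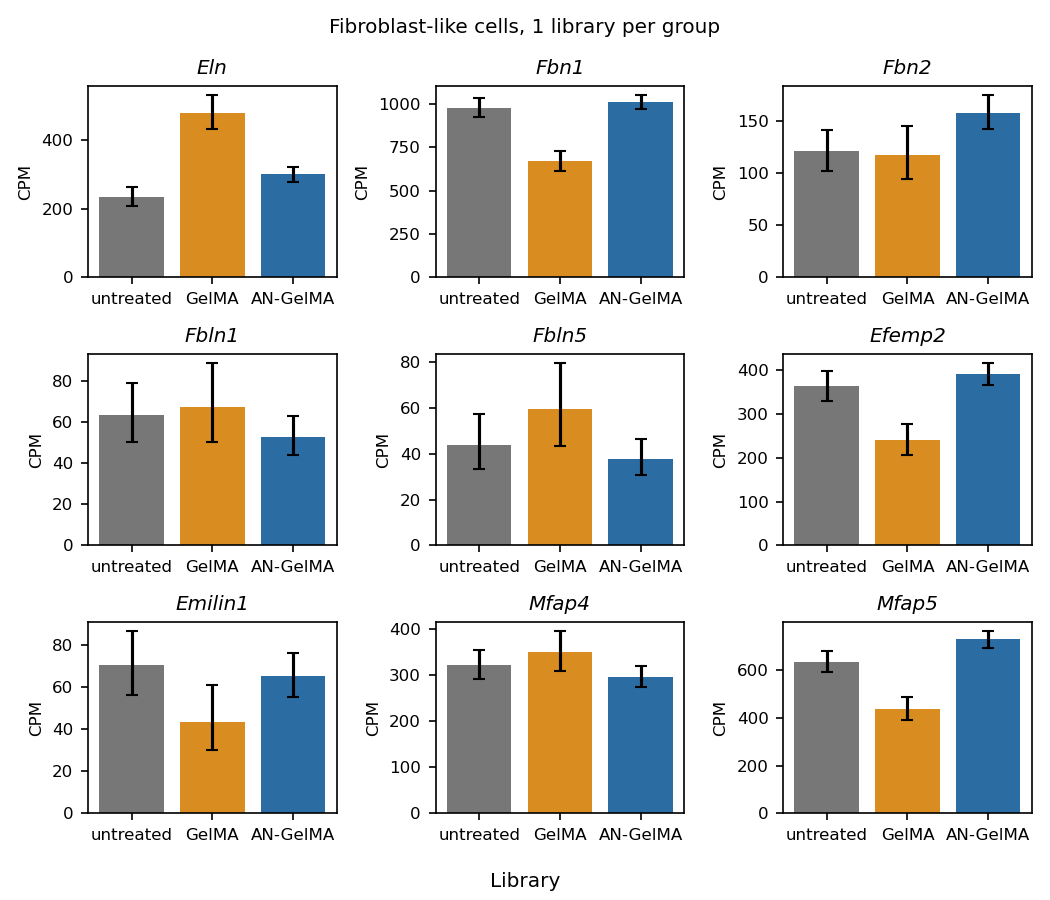
Level in CPM of each member in fibroblasts of the 3 libraries, with exact 95% Poisson intervals as bars. Eln and Fbln5 are highest in the GelMA library, and Fbn1, Efemp2, Emilin1 and Mfap5 are lowest there.

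After every cell was thinned to 800 UMIs, the share of fibroblasts with a UMI of a gene put the libraries in the same order as its level for 7 of the 9 members, Fbln1 and Mfap4 being the others. Thinning left 876, 410 and 1391 fibroblasts and removed shallower ones. Eln was then detected in 7.08% (5.47 to 8.98), 13.2% (10.1 to 16.8) and 7.84% (6.48 to 9.38) of fibroblasts (exact binomial intervals), and in 10.4, 17.1 and 12.7% of all fibroblasts before thinning. The share of keratinocytes with an Eln UMI was 0.645, 0.611 and 0.343% after the same thinning, with median depths of 1321, 1558 and 1353 UMIs against 1036.5, 892 and 1016 in fibroblasts. Fbn1, the fibrillin of mature microfibrils, was in 42.4, 34.6 and 42.7% of fibroblasts and 0.591, 0.556 and 0.755% of keratinocytes. Mfap5 was in 34.4, 23.4 and 35.2% and Efemp2 in 20.1, 15.4 and 23.6% of fibroblasts, both lowest with GelMA. Fbln5 was in 3.31, 6.10 and 2.59% and Fbn2 in 9.13, 8.29 and 10.6%. In keratinocytes the shares were 0.967, 0.667 and 1.34% for Mfap5, 1.34, 1.75 and 1.34% for Efemp2, 0.107, 0.194 and 0.103% for Fbln5 and 0.107, 0.0278 and 0.137% for Fbn2. Cells positive for Eln held 2.69, 3.04 and 2.81 of its UMIs on average before thinning, so the GelMA library had a larger share of positive cells and a slightly larger count in each. The median fibroblast showed 1 of the 9 members at this depth. In 19.5%, 28.0% and 19.7% of fibroblasts no member was detected, and in 15.8%, 14.9% and 16.7% at least 3 were.

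Fibroblasts were clustered again without the members, and the subsets differed widely in tropoelastin (the plot of levels by subset). Subsets are called by marker lists where these applied and otherwise by 2 of their leading genes. Adventitial-type fibroblasts, marked by Pi16, Dpp4, Cd34, Tnxb and Sema3c, numbered 161, 43 and 425 cells and an Abca8a Mgp subset 122, 212 and 208. A Col7a1 Tnc subset of 275, 175 and 477 cells carried 5 of 7 markers of matrix-building fibroblasts (Col12a1, Mmp11, Tnn, Tnc and Postn), but Tagln and Acta2, which are on the pericyte list, were among its 10 leading genes. Acta2 was there at 318, 173 and 453 CPM and Tagln at 359, 246 and 595 CPM. The pericyte markers Rgs5, at 3.09, 0 and 1.69 CPM beside 732, 603 and 629.6 in pericytes, and Kcnj8, at 0 in all 3 libraries, were at or near 0 in it. An inflammatory subset called Nos2 Saa3 here numbered 187, 25 and 401 cells, and proliferating fibroblasts 205, 46 and 282. A second inflammatory subset, led by Cxcl10 and Rsad2, numbered 57, 24 and 177 cells and also carried Nos2 and Saa3. It was named by levels relative to the other subsets. Its adventitial-type markers summed to 3057, 2296 and 3152 CPM, above its inflammatory markers at 1289, 643 and 1911 CPM. The Nos2 Saa3 subset was thus 17.8%, 3.59% and 20.0% of fibroblasts and the Cxcl10 Rsad2 subset 5.43%, 3.44% and 8.81%. Adventitial-type cells were 15.3%, 6.17% and 21.2%, and Abca8a Mgp cells 11.6%, 30.4% and 10.4%.

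Eln was at 724 (602 to 862), 1410.5 (1074 to 1819) and 1189 (1086 to 1299) CPM in adventitial-type fibroblasts and 698, 597 and 779.9 CPM in the Abca8a Mgp subset. The 43 GelMA cells of the former are too few for a ratio here. The Nos2 Saa3 inflammatory cells had 12.8 (2.63 to 37.3), 0 (0 to 126) and 23.2 (11.6 to 41.5) CPM. The proliferating cells had 40.8, 186 and 54.2 CPM and the Cxcl10 Rsad2 subset 86.9, 214 and 38.7 CPM. Tropoelastin was low in both subsets called inflammatory and in proliferating fibroblasts of the untreated and AN-GelMA libraries. It was high in adventitial-type and Abca8a Mgp cells of all 3. Thinned to 800 UMIs, 18.5, 31.8 and 26.3% of adventitial-type cells and 0.629, 0 and 1.03% of Nos2 Saa3 cells had an Eln UMI, the GelMA value of the latter coming from 16 cells. Fbn1 was highest in adventitial-type cells too, at 2032, 2032 and 1779.8 CPM, and Mfap5 was at 1349, 1458 and 1479.6 CPM there. Adventitial-type cells were identified without either gene. The Nos2 Saa3 cells had Fbn1 at 864, 617 and 872 CPM, and Mfap5 was at 672, 206 and 768 CPM in them.

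Efemp2 was highest in another subset, with 851, 959 and 770.3 CPM in Nos2 Saa3 inflammatory cells and 278, 215 and 225 CPM in adventitial-type ones. Emilin1 was at 149, 34.3 and 144 CPM in Nos2 Saa3 cells, 40.5, 47.8 and 26.6 CPM in adventitial-type cells and 46.4, 57.5 and 84.3 CPM in Col7a1 Tnc cells. Mfap4 was high in Col7a1 Tnc cells, at 625, 638 and 509 CPM, and in Abca8a Mgp cells, at 415, 237 and 570.1 CPM, and low in Nos2 Saa3 cells, at 51.1, 68.5 and 54.9 CPM. Fbn2 was at 145, 143 and 295 CPM in adventitial-type cells and 68.1, 103 and 94.96 CPM in Nos2 Saa3 cells, a narrower span than that of Eln. Fbln1 was at 93.6, 137 and 69.6 CPM in Nos2 Saa3 cells and 55.7, 52.3 and 35.4 CPM in Col7a1 Tnc cells, and Fbln5 at 21.3, 34.3 and 10.6 and 71.1, 41.8 and 52.3 CPM in the same pair. Nos2 Saa3 cells, where Efemp2 was highest, were the subset that made up 3.59% of GelMA fibroblasts against 17.8% and 20.0% in the other libraries. Averaged with equal weight over the Abca8a Mgp and Col7a1 Tnc subsets, the 2 with 50 or more cells in both libraries, Efemp2 in AN-GelMA over GelMA was 0.16 on the log2 scale, Mfap5 was 0.32, Emilin1 0.35 and Fbn1 -0.064, and GelMA over untreated for Efemp2 was -0.12. Under this weighting the Fbn1, Fbln5 and Mfap4 ratios of AN-GelMA over GelMA changed sign, Fbln5 to 0.47 and Mfap4 to 0.30. The same 3 genes changed sign in GelMA over untreated, Fbn1 to 0.12, Fbln5 to -0.98, past 1.5 times, and Mfap4 to -0.25. Fbln5 had only 5, 3 and 5 UMIs in Abca8a Mgp cells, under the 20 over both libraries needed for a ratio. In Col7a1 Tnc cells it had 23, 8 and 31.

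Small subsets were read mainly in the GelMA library, which held most of their cells. Dermal papilla type cells (26, 67 and 16), marked by Corin, Alx4 and Hhip, had Efemp2 at 374 CPM, Fbn1 at 198, Fbln5 at 121 in GelMA, while 1 UMI of Mfap5 was counted there. An Adamts18 Penk subset (7, 78 and 6 cells) had Mfap5 at 618 CPM, Mfap4 at 532, Eln at 201 and Fbln5 at 144. The Sectm1a Ccl19 subset (10, 27 and 17 cells) had Eln at 939 (608 to 1387) CPM and Fbln5 at 263 (106 to 542) in its 27 GelMA cells, while no Mfap5 UMI was counted in them, which allows up to 139 CPM.

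**Figure D3:**
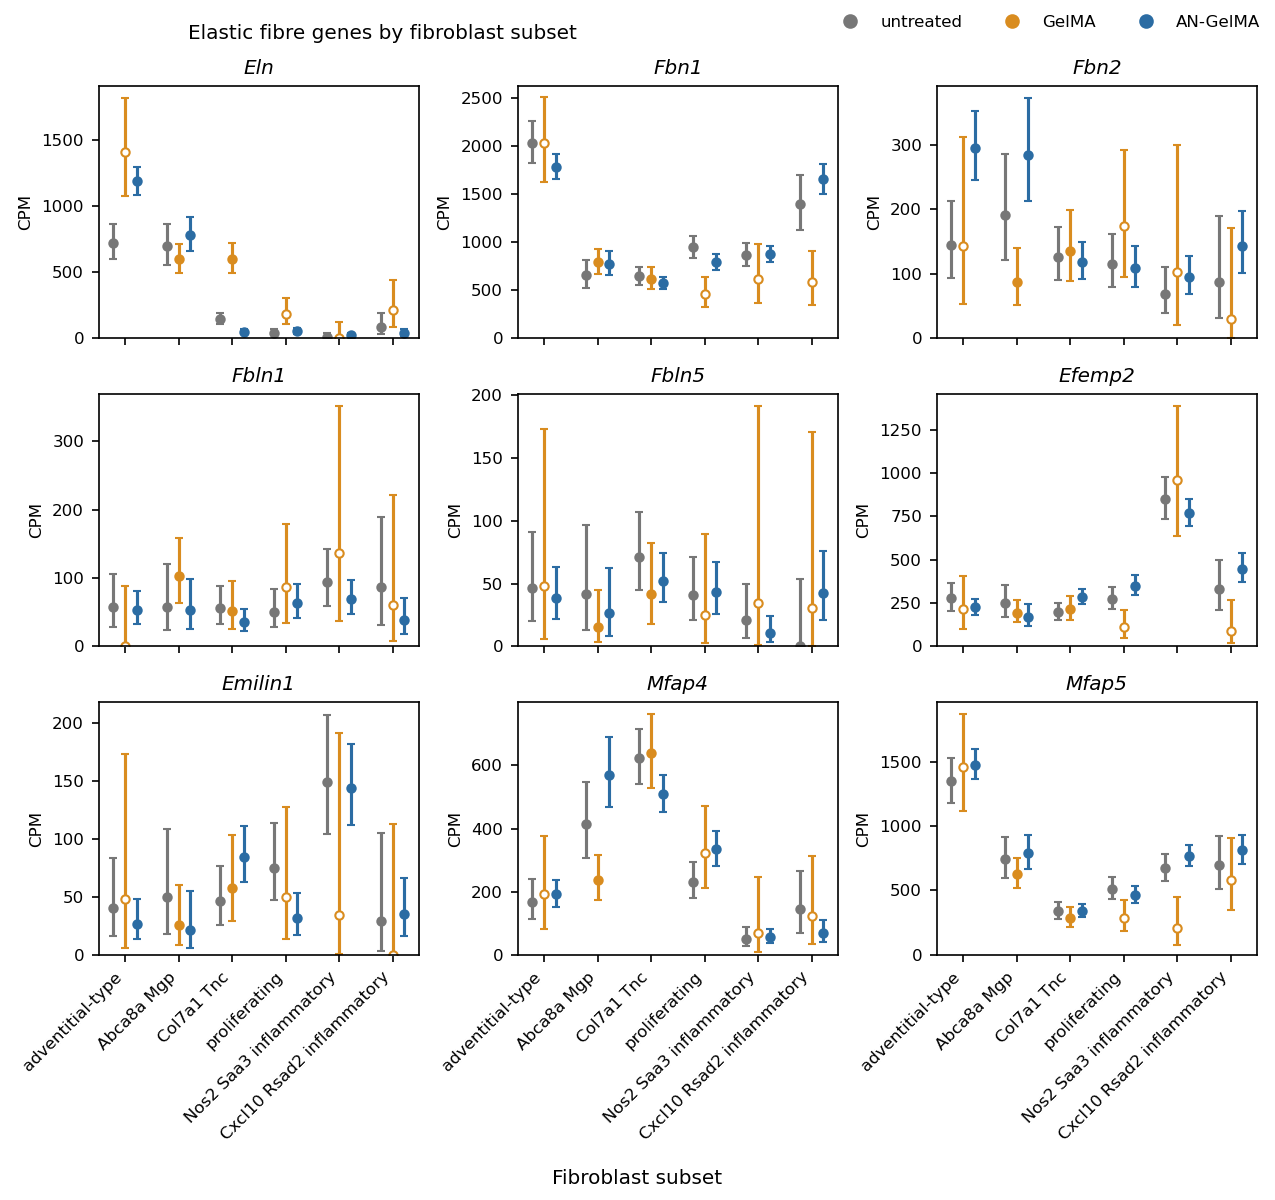
Level in CPM of each member in 6 fibroblast subsets and the 3 libraries, with exact 95% Poisson intervals; open symbols mark sums of fewer than 50 cells. Eln is highest in adventitial-type cells and near 0 in Nos2 Saa3 inflammatory cells, where Efemp2 is highest.

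Within subsets, the largest difference between libraries was that of Eln in Col7a1 Tnc fibroblasts. It was at 142 (104 to 189.7), 601 (497 to 722) and 48.9 (32.7 to 70.2) CPM, from 46, 115 and 29 UMIs in 18, 28 and 21 cells, and the 3 intervals did not overlap. AN-GelMA over GelMA was -3.62 (-4.26 to -3.02) on the log2 scale, a level 12.3 times lower. GelMA over untreated was 2.08 (1.58 to 2.61), a ratio of 4.23, and AN-GelMA over untreated was -1.54 (-2.26 to -0.84). Without the 5 cells of each library richest in Eln, these ratios were -3.44, 2.73 and -0.71, each still past 1.5 times. Those 5 are a large and unequal part of the 18, 28 and 21 cells with an Eln UMI. After thinning, 5.35, 12.6 and 2.18% of these cells had an Eln UMI, of 243, 111 and 367 cells.

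No other member differed as much as Eln between libraries in the same cells. Fbn1 was at 643, 617 and 575 CPM, Fbn2 at 127, 136 and 118 and Mfap5 at 340.1, 282 and 342. In AN-GelMA over GelMA none of the 9 members was higher, beside 13.9% of genes, and Eln alone was lower, beside 15.2%. Eln was higher in GelMA than untreated, beside 14.7%, and Fbln5, at -0.77, was lower, beside 13.8%. In AN-GelMA over untreated Emilin1 was higher at 0.86 (0.01 to 1.801), beside 9.99% of genes, and Eln and Fbln1, the latter at -0.65, were lower, beside 9.71%. Divided further, a Thbs4 Mgp group of these cells (116, 79 and 154) had Eln at 317, 1171 and 86.1 CPM and a Masp1 Mmp11 group (119, 83 and 213) at 34.4, 236 and 38.6 CPM. Eln was highest with GelMA in both groups, a division made after the difference in Eln was seen.

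Abca8a Mgp fibroblasts, the other subset with 50 or more cells in all 3 libraries, did not share this order. Eln was at 698 (556 to 864), 597 (494 to 716) and 779.9 (658 to 918) CPM, and no ratio passed 1.5 times. Without the 5 richest cells of each library, AN-GelMA over GelMA was 1.09 and AN-GelMA over untreated 0.74, both past it. The levels were then 326, 257 and 546 CPM, so a few cells held much of the Eln. Fbn2 was at 191 (121 to 287), 87.5 (51.0 to 140.1) and 285 (214 to 373) CPM and Mfap4 at 415 (308 to 547), 237 (173 to 316) and 570.1 (467 to 689.6) CPM, both lowest with GelMA. Their AN-GelMA over GelMA ratios were 1.70 (0.89 to 2.58) and 1.27 (0.76 to 1.799), and GelMA over untreated gave -1.13 and -0.81. Fbln1 was at 58.1, 103 and 53.8 CPM and its ratios of -0.94 (-2.20 to 0.23) in AN-GelMA over GelMA and 0.82 in GelMA over untreated came from few UMIs. So 2 of 7 members with enough UMIs were higher and 1 lower in AN-GelMA than GelMA, beside 15.2% and 18.2% of genes. GelMA over untreated had 1 member higher and 2 lower, beside 18.3% and 14.9%, and in AN-GelMA over untreated none of 6 passed, beside 13.8% and 12.4%.

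The 4 other subsets of 50 or more cells could be compared between AN-GelMA and untreated, where the class as a whole showed no member past 1.5 times. In adventitial-type cells Eln was higher in AN-GelMA, at 0.72 (0.43 to 1.01), and 1.07 without the 5 richest cells. Those 5 were taken from 161 untreated and from 425 AN-GelMA cells, so the second ratio is not like for like. Fbn2 was at 145 (93.6 to 214) CPM untreated and 295 (245 to 353) in AN-GelMA, a log2 ratio of 1.03 (0.40 to 1.71). These were the 2 of 8 members that were higher, beside 13.2% of genes, and none was lower, beside 10.8%. Proliferating fibroblasts had 1 of 9 members lower, Emilin1 at -1.24 (-2.32 to -0.21), beside 10.5% of genes, and none higher, beside 10.4%. In the Cxcl10 Rsad2 subset Fbn2 was higher at 0.72 and Mfap4 lower at -1.06, of 5 members, beside 20.1% and 15.6% of genes. In Nos2 Saa3 cells none of 7 members passed, beside 13.8% of genes higher and 11.3% lower.

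**Figure D4:**
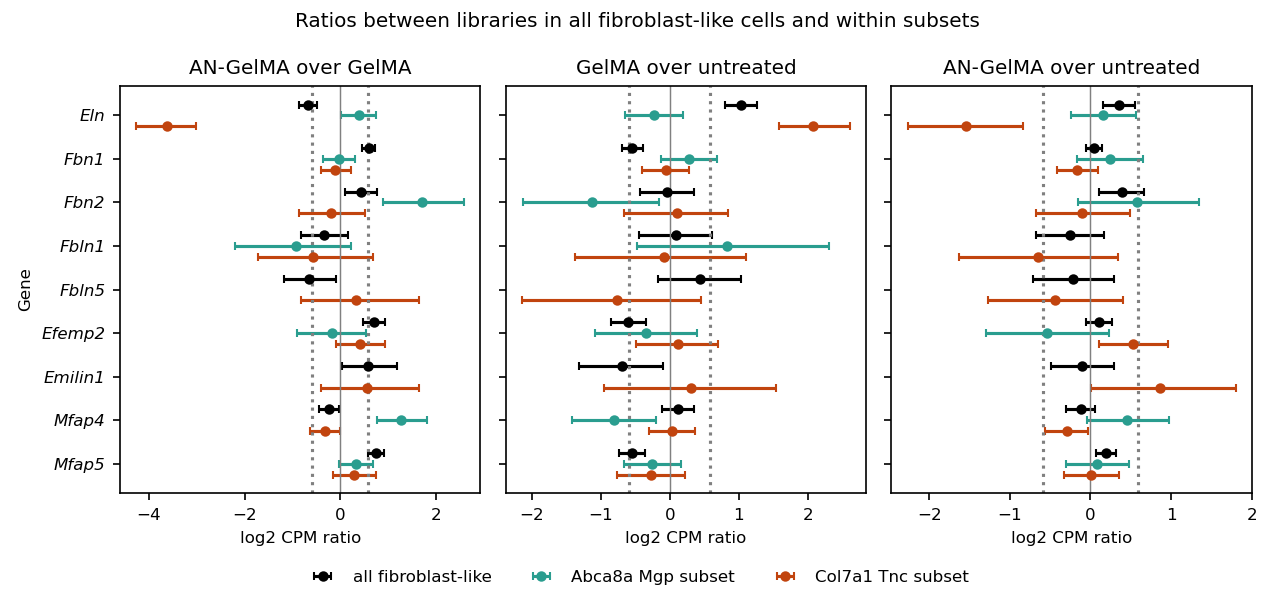
Log2 ratio of each member between libraries, with exact 95% intervals, in all fibroblasts and in the Abca8a Mgp and Col7a1 Tnc subsets, for members with at least 20 UMIs over both libraries; dotted lines mark 1.5 times. Eln in Col7a1 Tnc fibroblasts lies farthest from 0, at -3.62 in AN-GelMA over GelMA.

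Blood endothelial cells line vessels, and some also secrete tropoelastin; 391, 425 and 356 cells were counted. Eln was at 423 (364 to 489), 925 (833 to 1025) and 434 (370.5 to 505) CPM in them, with GelMA highest and overlapping intervals in the other two libraries. AN-GelMA over GelMA was -1.09 (-1.37 to -0.82), GelMA over untreated 1.13 (0.87 to 1.39) and AN-GelMA over untreated 0.04 (-0.28 to 0.35). Without the 5 richest cells of each library these were -1.14, 1.16 and 0.02. After thinning, 13.6, 27.9 and 11.3% of the cells had an Eln UMI, and 11.1, 11.2 and 10.4% had 1 of Fbln5. Fbln5 was at 173, 153 and 227 CPM and Fbn1 at 173, 174 and 159 CPM, with no ratio past 1.5 times. Mfap5 was low, at 41.6, 12.6 and 7.84 CPM, and below untreated in GelMA (-1.73) and AN-GelMA (-2.41). In AN-GelMA over GelMA 1 of 3 members was lower and none higher, beside 16.3% and 13.5% of genes. GelMA over untreated had 1 of 4 higher and 1 lower, beside 16.8% and 12.4%. In AN-GelMA over untreated 1 of 4 was lower and none higher, beside 8.68% and 10.1%.

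Within the endothelium, the level of tropoelastin was highest in a Hey2 Efna5 group (33, 48 and 38 cells), at 1520.2 (1113 to 2028), 3949 (3403 to 4557) and 1494 (1123 to 1949.9) CPM. Hey2 is a transcription factor of the arterial programme. Fbln5 was at 859, 528 and 969 CPM in the same cells, the highest of any endothelial group but with GelMA lowest. A Selp Ackr1 group (126, 126 and 133 cells), genes of venules, had Eln at 931 (774 to 1110), 1064 (881 to 1275) and 903 (743 to 1088) CPM. These intervals overlap, and the values came from 124, 118 and 111 UMIs beside 46, 187 and 54 in the Hey2 Efna5 group. Fbln5 was at 270.3, 171 and 374 CPM in Selp Ackr1 cells. A Prnd Apln group (155, 114 and 118 cells) had Eln at 56.9 (27.3 to 105), 109 (58.2 to 187) and 0 (0 to 25.6) CPM. Dividing endothelial cells (67, 26 and 49) had 35.2 (7.26 to 103), 1010.2 (704 to 1405) and 0 (0 to 56.4) CPM, and a Lpl Aqp7 group found almost only in GelMA (2, 98 and 2 cells) had 159 CPM there. The division was made after the Eln difference was seen, and a group of 8, 13 and 16 cells with the lymphatic genes Prox1 and Ccl21a was also among these cells.

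**Figure D5:**
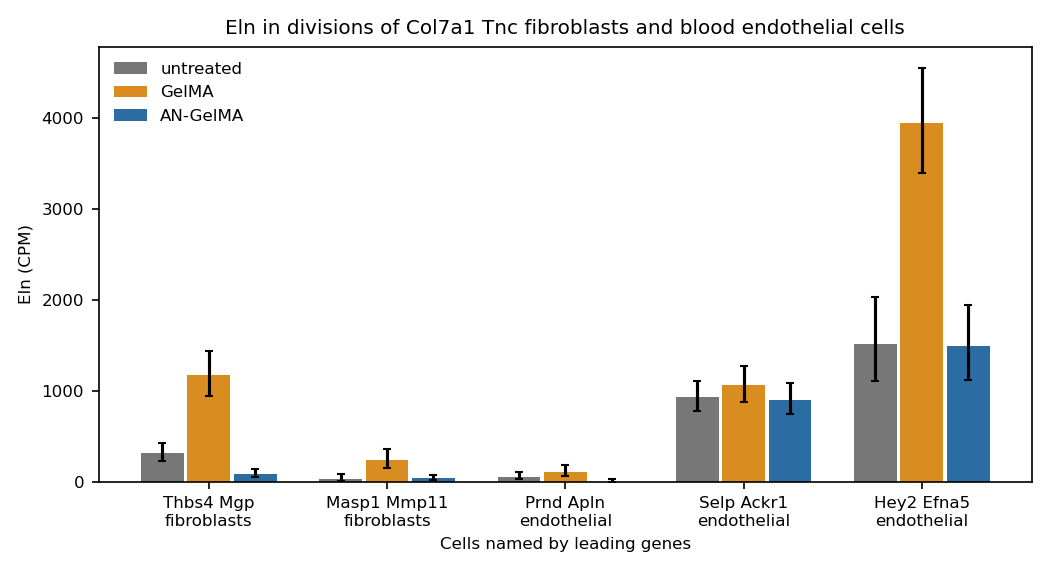
Eln level in CPM, with exact 95% Poisson intervals, in divisions of Col7a1 Tnc fibroblasts and of blood endothelial cells, for the 3 libraries. GelMA is the highest bar in each of the 5 divisions drawn, up to 3949 CPM in Hey2 Efna5 endothelial cells. All 3 intervals overlap in Selp Ackr1 cells, and those of untreated and GelMA overlap in Prnd Apln cells. The smallest group of Col7a1 Tnc fibroblasts and the dividing, Lpl Aqp7 and lymphatic endothelial groups are not drawn.

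Pericytes and smooth muscle cells, which wrap vessels and make elastin in arteries, were only 91, 61 and 56 cells. A further group of 12, 18 and 13 cells, led by Myh11 and Acta2, scored highest for this class but was left unnamed, being under 50 cells. That group is in none of the values below, so smooth muscle is only partly covered. Eln was at 67.4 (27.1 to 139), 413 (265 to 615) and 42.0 (8.66 to 123) CPM, from 7, 24 and 3 UMIs in 3, 5 and 1 cells, so its high GelMA value came from 5 cells. Fbn1 was at 308 (211 to 435), 51.7 (10.7 to 151) and 336 (215 to 499.7) CPM, from 32, 3 and 24 UMIs, and Efemp2 at 212, 68.9 and 238 CPM, both lowest with GelMA as in fibroblasts. On the log2 scale AN-GelMA over GelMA was 2.70 (0.98 to 5.08) for Fbn1, 1.79 (0.17 to 3.82) for Efemp2 and -3.30 (-5.67 to -1.58) for Eln. Thus 2 of 3 members were higher and 1 lower, beside 25.1% and 17.5% of genes, and in GelMA over untreated 1 was higher and 2 lower, beside 15.5% and 25.4%. Neither of 2 members passed in AN-GelMA over untreated, beside 14.2% higher and 19.1% lower.

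Outside connective tissue and vessels most members were low. Fbln1 in keratinocytes was at 34.3 (28.5 to 40.9), 27.7 (24.2 to 31.6) and 31.8 (27.4 to 36.7) CPM, and 2.42, 1.86 and 2.30% of thinned keratinocytes had a UMI of it against 5.14, 4.63 and 4.10% of fibroblasts. Eln in keratinocytes was at 5.26, 9.78 and 7.04 CPM and Fbn1 at 11.9, 5.51 and 12.9 CPM, so the level of Fbln1 relative to fibroblasts was far above that of Eln or Fbn1. Hair-forming cells had Fbln1 at 42.8 CPM untreated and 34.4 CPM in GelMA, with too few cells in AN-GelMA. Skeletal muscle had Efemp2 at 60.0, 39.8 and 103 CPM.

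Across 33 sums of class and library from 13 classes, the members' levels, as log2(CPM + 10), ran together to different degrees. The sums share libraries and classes, and values are given as a description. Pearson's r was 0.86 for Mfap4 with Mfap5, 0.84 for Fbn1 with Fbn2, 0.81 for Eln with Fbln5, 0.80 for Eln with Fbn1, and 0.16 for Fbln1 with Fbln5. Among 11144 genes the pattern most like that of Eln was that of Ecm2 (0.92), then Tmod2 (0.92) and Adamts4 (0.91), with r in brackets. Fbn1 was nearest to Fstl1 (0.93), Fbn2 to Col1a2 (0.92) and Rarres2 (0.92), and Mfap4 to AW551984 (0.92). Mfap5 was nearest to Osr2 (0.89), Fbln5 to Fam171a1 (0.92), Fbln1 to Med13l (0.80), Efemp2 to Smarca1 (0.86) and Emilin1 to Bicc1 (0.84).

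Of the 5 enzymes listed that crosslink tropoelastin, Lox, Loxl2 and Loxl3 were lowest with GelMA in fibroblasts, like Fbn1 and Efemp2. Lox, the lysyl oxidase that Efemp2 binds, was at 354, 147 and 303 CPM, and its log2 ratio was 1.04 in AN-GelMA over GelMA and -1.27 in GelMA over untreated. Loxl3 was at 240.0, 120.3 and 198 CPM, with 0.72 and -0.997, and Loxl2 gave 0.63 and -0.65. Loxl4 was highest with GelMA, at 35.2, 91.2 and 48.3 CPM, and Loxl1, the elastin-specific member that Fbln5 binds, was at 216, 230.0 and 257 CPM and near even. In all, 3 of 5 crosslinking genes were higher and 1 lower in AN-GelMA than GelMA (median log2 ratio 0.63), beside the same 10.6% and 20.0% of all genes in fibroblasts. In GelMA over untreated 1 was higher and 3 were lower (median -0.65), beside 18.6% and 10.2% of all genes, and none of 5 passed in AN-GelMA over untreated (median -0.02), beside 5.2% and 6.81%.

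Other microfibril and assembly genes were mixed. Ltbp4, which tethers latent TGF-beta and takes part in elastic fibre assembly with Fbln5, was at 53.6, 153 and 32.9 CPM, with log2 ratios of -2.22 in AN-GelMA over GelMA and 1.52 in GelMA over untreated, highest with GelMA like Eln. Ltbp1 was at 48.0, 118 and 69.6 CPM and Adamts10, a metalloproteinase that binds fibrillin, at 191, 305 and 168 CPM, both also highest there, as were Adamtsl2, at 19.2, 33.0 and 7.50 CPM, and Vcan, at 309, 473 and 331 CPM. Fn1, whose fibronectin fibrils are needed for microfibril assembly, was lowest with GelMA like Fbn1, at 1183, 478 and 1523 CPM, with 1.67 and -1.31. Thsd4 was also higher in AN-GelMA than GelMA (1.66), but from 20 and 2 UMIs, with overlapping intervals of level. Mfap2 was at 149.6, 151 and 155 CPM. Of 17 genes, 2 were higher and 4 lower in AN-GelMA than GelMA (median -0.15), shares near the 10.6% and 20.0% of all genes. GelMA over untreated had 5 of 16 higher and 1 lower (median 0.22), beside 18.6% and 10.2%, and AN-GelMA over untreated 0 and 2 of 17 (median 0.03), beside 5.2% and 6.81%.

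Among inhibitors of matrix breakdown, Timp1, which inhibits matrix metalloproteinases, was lowest with GelMA, at 112, 60.8 and 196 CPM, with log2 ratios of 1.69 in AN-GelMA over GelMA, -0.88 in GelMA over untreated and 0.81 in AN-GelMA over untreated. Timp3 was lower in GelMA than untreated (-0.61). Serpina3n was at 28.8, 29.1 and 50.0 CPM, higher in AN-GelMA than in GelMA (0.78) and untreated (0.80), and the cathepsin inhibitor Cst3 was lower than in either (-0.85 and -0.73). Slpi, an inhibitor of neutrophil elastase, had few UMIs, with ratios of 1.07 (-0.68 to 3.47) in AN-GelMA over GelMA and 1.38 (-0.20 to 3.39) in AN-GelMA over untreated, both past 1.5 times with intervals that include 0. Of 13 proteases that can cut elastin, 7 had enough UMIs in AN-GelMA over GelMA, of which 2, Mmp9 and Ctss, were higher and none lower, beside 10.6% and 20.0% of all genes. Mmp3 and Ctsl were higher and Mmp12 and Ctss lower, of 8, in GelMA over untreated, beside 18.6% and 10.2%. Mmp9 was higher and Mmp12 and Ctss lower, of 8, in AN-GelMA over untreated, beside 5.2% and 6.81%. Mmp9, Mmp12 and Ctss are made mainly by neutrophils and macrophages, and the summed level of the 9 macrophage markers in fibroblasts was 104, 70.0 and 91.3 CPM and that of the 7 neutrophil markers, Mmp9 among them, 56.0, 60.8 and 72.5 CPM; their part in these 3 values was not tested.

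Receptors and fibrillar collagens complete the comparison. Of 10 receptors of elastin and fibrillin, 3 were higher (Itga5, Itgb3 and Glb1) and 1 lower (Itga8, at -2.45) in AN-GelMA than GelMA, beside 10.6% and 20.0% of all genes. GelMA over untreated had 1 receptor, Itga8 at 2.16, higher and Itgb3 and Glb1 lower, of 10, beside 18.6% and 10.2%, and none of 9 passed in AN-GelMA over untreated, beside 5.2% and 6.81%. Of 7 fibrillar collagens, several of which are also fibroblast markers, 2 were higher (Col3a1 and Col5a3) and 1 lower (Col11a1) in AN-GelMA than GelMA, beside 10.6% and 20.0% of all genes, with a median of 0.47 beside 0.43 for the 9 members. None of 7 passed in AN-GelMA over untreated, beside 5.2% and 6.81%, and in GelMA over untreated Col11a1 was higher and Col5a3 lower, beside 18.6% and 10.2%.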

How the data were processed

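The deposited values are UMI counts made with software version 10.0.0, per the file headers, and with Cell Ranger against GRCm39, per the submitters' processing notes. How barcodes were chosen is not stated there. The 3 count matrices were processed with Scanpy 1.11.5, NumPy 2.4.6, SciPy 1.17.1 and pandas 2.3.3. Cells under 400 UMIs or 250 genes, or above 10% mitochondrial UMIs, were dropped (34, 147 and 36). Scrublet called 0 doublets, so the top 5% of its scores in each library (318, 615 and 518 cells) were removed, leaving 5721, 10687 and 9094. Counts were scaled to 10000 per cell, and 2000 variable genes without the members and listed genes (69), 30 components, 15 neighbours and resolution 1 gave clusters, named from 19 marker lists (score 1.8, margin 0.5, 3 markers). Fibroblasts were clustered again at 0.5. Raw UMIs were summed by class and library and divided by the class total (CPM); 1 UMI in fibroblasts was 0.800, 1.32 and 0.417 CPM. With 1 library per group no test was made. Intervals of levels are exact Poisson and those of ratios exact conditional binomial, at 95%, and cover counting error only. Ratios needed 50 cells per library and 20 UMIs over both; 1.5 times or more was called. The number of probe pairs per gene was not used here, so levels are compared within a gene, not between genes.

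Members and lists were chosen with earlier results of these data known. Genes named are the 9 members, genes of the pathway lists, markers and leading genes of clusters, and for each member up to 3 genes with the highest Pearson's r of log2(CPM + 10) over class sums of at least 50 cells, among genes of at least 50 CPM in 1 of them. Set after the data were seen were the naming limits taken over from earlier processing, the score gap of 2.5 between first and second class under which a cluster was divided, the rule that dropped 1 fibroblast subset with macrophage genes (32, 10 and 27 cells; the 2 earlier forms of that rule dropped none, or also the Col7a1 Tnc subset), the further division of Col7a1 Tnc and endothelial cells, the label of that subset and 3 of the 16 alternatives. Only fibroblast subsets and the 3 stromal classes were searched for opposite differences. The scripts were tested on simulated data. No GRCm39 genome or protein table was used here. An item of the lists is not reported here, and counts that need it are left out.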

Additional observations from a re-analysis of the deposited data

Results flagged for a closer look

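Eln in AN-GelMA over untreated lay on opposite sides of even in 2 fibroblast subsets, with a log2 ratio of 0.72 in adventitial-type cells and -1.54 in Col7a1 Tnc cells. Without the 5 cells of each library richest in Eln the ratios were 1.07 and -0.71. Emilin1 in the same comparison was at 0.86 in Col7a1 Tnc cells and -1.24 in proliferating cells, and without the 5 richest cells at 1.24 and -1.61. Its UMIs, untreated and AN-GelMA, were 15 and 50 in the former and 22 and 14 in the latter. A fixed 5 cells can take a larger share of UMIs from the library that holds fewer, so larger ratios here are no added support. Both pairs stood out because the 2 subsets differed in opposite directions past 1.5 times, with 1 library per group, and the difference between the subsets itself was not tested.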

How the results depend on the processing

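Each ratio in fibroblasts was recomputed under 16 alternatives, 13 listed beforehand and 3 added after seeing the data (keeping the subset with macrophage genes, leaving out the 5 cells per library with most Eln UMIs, and leaving out the Col7a1 Tnc subset). Of the 16, 1 kept only members with at least 100 UMIs over both libraries. It removed none, so it repeats the main values and counts as kept in every count below. The members' median ranged from 0.30 to 0.61 in AN-GelMA over GelMA, from -0.28 to 0.01 in GelMA over untreated and from 0.03 to 0.15 in AN-GelMA over untreated. It stayed between the median of the members' lower limits and the median of their upper limits in each. In AN-GelMA over GelMA the median stayed short of 1.5 times in 15 of 16 alternatives. With equal weight to each subset of 50 or more cells in both libraries, which leaves 2 subsets where GelMA is compared, 3 ratios of AN-GelMA over GelMA changed sign, Fbn1 to -0.064, Fbln5 to 0.47 and Mfap4 to 0.30, and so did 3 of GelMA over untreated, Fbn1 to 0.12, Fbln5 to -0.98 and Mfap4 to -0.25. The equal-weight Fbln5 values rest on few UMIs, only 5, 3 and 5 in Abca8a Mgp cells. Other sign changes were of ratios near even that were not called. In AN-GelMA over GelMA the call was kept in 12 of 16 alternatives for Eln (range -1.21 to -0.19), 11 for Fbn1, 11 for Fbln5, 15 for Efemp2, 8 for Emilin1 and 13 for Mfap5. Eln was lost at -0.56 with median-of-ratios size factors, -0.53 with equal weights, -0.49 without the 5 richest cells and -0.19 without the Col7a1 Tnc subset. In GelMA over untreated the call was kept in 15 for Eln (0.51 to 1.42), 14 for Efemp2 and 13 for Emilin1. Some members not called in the main result passed 1.5 times under other alternatives. In GelMA over untreated, Fbn1 stayed uncalled in 12 of 16, Mfap5 in 13 and Fbln5 in 13 (-0.98 to 1.22). Without the Col7a1 Tnc subset these 3 passed, at -0.67, -0.60 and 0.92. In AN-GelMA over GelMA, Fbn2 stayed uncalled in 13 (up to 0.85) and Fbln1 in 14 (down to -0.91). In AN-GelMA over untreated, Eln stayed uncalled in 15 (up to 0.65). Why these moved was not tested. Depth limits Emilin1, Fbln1 and Fbln5 in most subsets. No paired analysis was possible because no group has more than 1 library.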
